A study of Mus musculus with 27 samples.

Results

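Collagen chains, the enzymes that modify them and their chaperone were followed in lines cultured from mouse mammary tumours driven by the MMTV-PyMT transgene. The set was chosen by name. It held every gene whose symbol is Col, a number, the letter a and a number, with the lysyl oxidases Lox and Loxl1 to Loxl4, the lysyl hydroxylases Plod1 to Plod3, the prolyl 4-hydroxylase subunits P4ha1 to P4ha3 and the chaperone Serpinh1. Of the 24454 genes in the table, 56 belonged to it, namely 44 collagen chains and 12 genes for enzymes or the chaperone. At least 1 CPM (reads per 1000000 reads assigned to genes) in at least 2 libraries was found for 45 of the 56, of which 33 were chains. The other 11 members stayed below that level, with no value above 1.40 CPM, and are not described further.

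The 27 libraries came from 9 cell lines, each sequenced once without cytokine, once with Wnt3a (100 ng/ml for 3 days) and once with TGFβ (2 ng/ml for 4 days). All lines were grown from thoracic mammary tumours of FVB/N mice in which the MMTV promoter drives the polyoma middle T oncogene in the mammary gland, and fibroblasts had been depleted by differential trypsinization. Each ΔHD1/fl line (2 lines) and ΔHD2/fl line (2 lines) carried, for both Bcl9 and Bcl9L, an allele without the HD1 or HD2 domain beside a wild-type allele flanked by loxP sites, which in the ΔHD1/- lines (2 lines) and ΔHD2/- lines (3 lines) had been removed in culture with an adenovirus that expresses Cre and GFP. HD1 is the domain that binds Pygopus and HD2 the domain that binds β-catenin. All groups therefore carried the oncogene and a domain mutant, and lines without a mutant allele were not analysed here. Line numbers are those in the labels, and it was not given if lines that share a number come from 1 tumour.

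Library depth ranged from 21.9 to 33.7 M reads (median 26.0 M, with M for 1000000), so that 3 reads, the limit set by a count of 0, were worth 0.0890 to 0.137 CPM. That floor covers counting error only. ΔHD2/- lines 2 and 3 correlated with each other at 0.993 to 0.997 across genes, and the labels speak of 2 lines per genotype, so the third ΔHD2/- line was not shown to be independent and a count over 9 lines may count 1 line 2 times. They are named beside results that rest on them. ΔHD1/fl line 2 and ΔHD1/- line 2 stood apart from the other lines in part of the epithelial markers. Without cytokine their Cdh1, the epithelial cadherin, was at 0.522 and 0.237 CPM and their Epcam at 0.0746 and 0 CPM, against Cdh1 at 606 CPM or more and Epcam at 263 CPM or more in the other 7 lines. Some keratins of the list were still read in them, with Krt14 at 356 and 223 CPM and Krt8 at 0.336 and 1089 CPM. The 6 epithelial markers summed to 358 and 1315 CPM untreated, against 3774 to 19528 CPM in the other lines. With TGFβ they summed to 37.6 and 3003 CPM, against 2065 to 6672 CPM in the other lines, so ΔHD1/- line 2 then lay within that range. The fibroblast receptor genes Pdgfra (416 and 629 CPM) and Pdgfrb (762 and 473 CPM) of ΔHD1/fl line 2 and ΔHD1/- line 2 were above those of all other lines. The 8 fibroblast markers summed to 1207 and 1117 CPM in these lines, against at most 219 CPM in the others. Pdgfra and Pdgfrb made up nearly all of the 2 high sums, so the other markers of the list were low there. Of 8 fibroblast markers, 5 reached 1 CPM in some library, while Dpt, Fap and Lum stayed under 0.2 CPM in all, and the summed level of the list ran from 1.94 to 1207 CPM without cytokine (median 22.7 CPM), from 0.537 to 1205 CPM with Wnt3a and from 1.501 to 658 CPM with TGFβ. Endothelial markers summed to at most 6.51 CPM in any library and adipocyte markers to at most 11.5 CPM. Of 4 leukocyte markers the sum was 183, 186 and 71.6 CPM in ΔHD1/- line 2 without cytokine, with Wnt3a and with TGFβ, and 3.01 to 43.6 CPM in the other lines. Without cytokine that line had Csf1r at 165 CPM and Cd68 at 17.7 CPM, and Ptprc and Cd3e, which define leukocytes and T cells, at 0. In bulk RNA, fewer cells of a type and less RNA per cell cannot be told apart. Bcl9 (34.0 to 67.8 CPM) and Bcl9l (138 to 323 CPM) were read in all untreated lines, but gene totals do not separate mutant from wild-type alleles and so do not check the genotype.

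Collagens are proteins of 3 chains wound into a triple helix. Inside the cell, prolyl 4-hydroxylases and lysyl hydroxylases modify the chains, and Serpinh1 (also called HSP47) binds the folded helix until it leaves the endoplasmic reticulum. Outside, lysyl oxidases start the cross-links between molecules. Fibrillar collagens (types I, II, III, V and XI) build fibres and are mostly products of mesenchymal cells, collagen IV builds the sheet of the basement membrane, collagen VI forms beaded filaments, collagen VII forms the anchoring fibrils under epithelia, and collagen XVII is part of the hemidesmosome. TGFβ is a widely known inducer of matrix genes.

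Promoter sequence is shown for the members on which the results turn most. Serpinh1 and Col18a1 were read at high level in most lines and were at or near 0 in the same pair of lines, Col7a1 rose in all 9 lines with TGFβ, and Col4a5 and Col4a6, which are transcribed away from each other with 1342 bases between their RefSeq starts, both fell. The RefSeq table of promoters (GRCm38.p6, the assembly also called mm10) held windows for 42 of the 56 members. The 250 bases before each start are given 5′ to 3′ on the strand of the gene. Gene positions in the text come from GENCODE, whose starts can differ, and bases that GENCODE annotates as exon were left out (18 for Col18a1 and 34 for Col4a5). Capitals mark matches to 4 short motifs on either strand, namely the GC box GGGCGG, the CCAAT box, the Smad box CAGAC and the AP-1 site TGACTCA. Col18a1 has 2 listed starts, and the window of the inner one, which lies mostly in an exon, is not shown.
Serpinh1, chr7:99353240-99353489 (-): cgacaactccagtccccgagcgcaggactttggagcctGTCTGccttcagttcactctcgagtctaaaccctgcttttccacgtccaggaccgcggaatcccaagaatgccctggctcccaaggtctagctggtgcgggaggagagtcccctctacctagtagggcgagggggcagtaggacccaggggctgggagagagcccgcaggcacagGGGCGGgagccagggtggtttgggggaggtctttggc
Col18a1, chr10:77166549-77166780 (-): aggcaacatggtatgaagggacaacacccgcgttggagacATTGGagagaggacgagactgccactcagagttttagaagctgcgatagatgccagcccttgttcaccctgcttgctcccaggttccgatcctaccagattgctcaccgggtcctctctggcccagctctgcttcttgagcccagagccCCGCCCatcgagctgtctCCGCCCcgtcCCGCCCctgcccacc
Col7a1, chr9:108953336-108953585 (+): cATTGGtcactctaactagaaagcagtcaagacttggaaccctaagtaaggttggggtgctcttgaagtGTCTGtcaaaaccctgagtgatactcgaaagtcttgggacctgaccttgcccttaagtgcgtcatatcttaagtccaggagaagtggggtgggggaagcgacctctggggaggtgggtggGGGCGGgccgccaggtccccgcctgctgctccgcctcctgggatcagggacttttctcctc
Col4a5, chrX:141475169-141475384 (+): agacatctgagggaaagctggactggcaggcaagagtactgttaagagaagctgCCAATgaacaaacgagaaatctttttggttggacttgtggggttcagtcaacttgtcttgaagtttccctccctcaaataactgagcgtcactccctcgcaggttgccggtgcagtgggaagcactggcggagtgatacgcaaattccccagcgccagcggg
Col4a6, chrX:141474077-141474326 (-): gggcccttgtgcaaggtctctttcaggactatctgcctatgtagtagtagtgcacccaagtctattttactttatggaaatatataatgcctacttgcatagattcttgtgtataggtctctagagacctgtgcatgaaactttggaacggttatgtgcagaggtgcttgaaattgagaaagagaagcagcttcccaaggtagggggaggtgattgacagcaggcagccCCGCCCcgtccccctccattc
CG pairs in the full 250 bases numbered 11, 12, 7, 10 and 3 in the order shown, against a median of 6 over all 32851 windows. In the 250 bases before the start, the GC box was present in 28 of the 45 windows of members (62.2%) and in 32.7% of all windows. The CCAAT box was present in 31.1% of the members' windows and 33.9% of all, the Smad box in 44.4% and 42.2%, and the AP-1 site in 2.22% and 4.46%. Motifs of this length are present in many windows, and a match is a description of the letters only.

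Without cytokine, the 9 lines differed from each other in which collagen RNAs were found. Members together took 0.153% of the reads in ΔHD1/fl line 1, the lowest, and 1.14% in ΔHD1/- line 2, the highest. At least 1 CPM was reached by 44 members in at least 1 line but by only 13 members, 7 of them chains, in all 9. When levels were compared per kilobase of exon, Serpinh1 led in 4 lines, ΔHD1/fl lines 1 and 2 (123 and 316 CPM per kb), ΔHD1/- line 2 (489 CPM per kb) and ΔHD2/- line 1 (143 CPM per kb). In the other 5 lines the leading member was Lox (95.7 CPM per kb in ΔHD1/- line 1), Col4a2 (140 CPM per kb in ΔHD2/fl line 1), Col17a1 (177 CPM per kb in ΔHD2/fl line 2) or Loxl4 (471 and 570.0 CPM per kb in ΔHD2/- lines 2 and 3). The leading chain was Col18a1, Col6a1, Col4a2 or Col1a1 in 8 of the 9 lines and Col17a1 in the ninth.

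**Figure D1:**
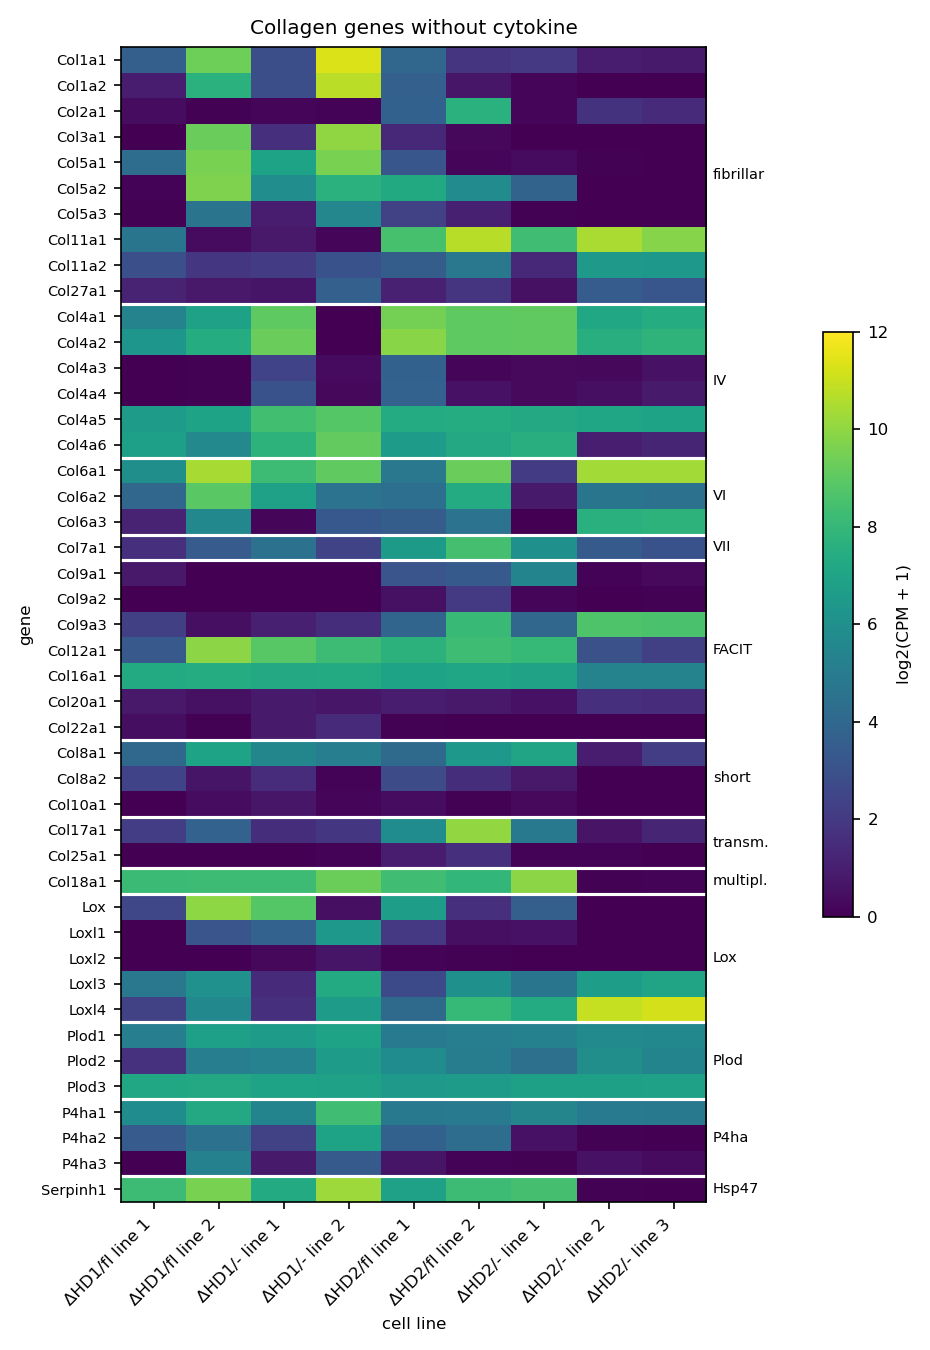
Level of each tested member in the 9 untreated lines, as log2(CPM + 1) in colour, with members in rows grouped by role and lines in columns. Yellow is high and dark is at or near 0. The fibrillar chains Col1a1, Col1a2, Col3a1 and Col5a1 are high in ΔHD1/fl line 2 and ΔHD1/- line 2, and Serpinh1 and Col18a1 are dark only in ΔHD2/- lines 2 and 3.

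Several fibrillar chains differed widely between lines. Col1a1, which encodes a chain of collagen I, was at 11.5 and 659 CPM in ΔHD1/fl lines 1 and 2, 6.46 and 2603 CPM in ΔHD1/- lines 1 and 2, 14.8 and 2.48 CPM in ΔHD2/fl lines 1 and 2, and 2.97, 0.946 and 0.837 CPM in ΔHD2/- lines 1 to 3. Its partner Col1a2 was at 202 and 1724 CPM in the same high pair of lines and between 0 and 11.6 CPM in the other 7. Col3a1, the chain of collagen III, was at 608 and 1036 CPM in that pair and at most 2.14 CPM elsewhere. ΔHD1/fl line 2 and ΔHD1/- line 2 were also the lines with the high fibroblast receptor levels and without Cdh1 given above, and ΔHD1/- line 2 the one with the high leukocyte sum, and the part of these markers in the collagen levels was not tested. Col5a1, a chain of collagen V that takes part in starting fibrils, was at 772 and 759 CPM in these lines, at 124 CPM in ΔHD1/- line 1, and between 0 and 18.3 CPM in the other 6. Col5a2 had another spread. It was at 826, 58.9, 199, 158, 55.2 and 13.2 CPM in ΔHD1/fl line 2, ΔHD1/- lines 1 and 2, ΔHD2/fl lines 1 and 2 and ΔHD2/- line 1, and at 0.0915 CPM or less in the remaining 3 lines. Col11a1, a minor fibrillar chain known best from cartilage, ran the other way, with 24.2 and 0.261 CPM in ΔHD1/fl, 0.770 and 0.119 CPM in ΔHD1/-, 363 and 1690 CPM in ΔHD2/fl, and 321, 1428 and 914 CPM in ΔHD2/-. All 5 lines of the ΔHD2 family were above all 4 of the ΔHD1 family for Col11a1, a contrast that was not tested, and its SD over lines (4.52 on the log2(CPM + 1) scale) was the largest of the set.

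Both common basement membrane chains were silent in a single line. Col4a1 (chr8:11198423-11312826) was at 40.5 and 117 CPM in ΔHD1/fl, 518 and 0 CPM in ΔHD1/-, 717 and 525 CPM in ΔHD2/fl, and 544, 147 and 172 CPM in ΔHD2/-. Col4a2 (chr8:11312805-11449287) was at 78.1 and 171 CPM in ΔHD1/fl, 618 and 0.0297 CPM in ΔHD1/-, 927 and 517 CPM in ΔHD2/fl, and 533, 190 and 226 CPM in ΔHD2/-. The genes lie head to head on opposite strands and their annotated starts overlap by 22 bases. Over the 3 libraries of ΔHD1/- line 2, Col4a1 had 1 read and Col4a2 had 20 reads, while Col4a5 and Col4a6 were at 449 and 549 CPM there without cytokine, the highest of the 9 lines for both. In the 24 libraries of the other 8 lines, the level of Col4a1 per kilobase was 0.354 to 0.962 times that of Col4a2 (median 0.687), a narrower range than that of either chain over these lines. The minor chains Col4a3 and Col4a4 were at 4.28 and 7.06 CPM in ΔHD1/- line 1 and at 12.025 and 12.5 CPM in ΔHD2/fl line 1, and below 1 CPM in the other 7 lines.

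Serpinh1 (chr7:99345376-99353239) was at 299 and 773 CPM in ΔHD1/fl, 163 and 1194.5 CPM in ΔHD1/-, 116 and 298 CPM in ΔHD2/fl, and 351, 0.0450 and 0 CPM in ΔHD2/-. Lines 2 and 3 of ΔHD2/- held 1 Serpinh1 read over their 6 libraries. Col18a1 (chr10:77052178-77166548), which encodes the basement membrane proteoglycan that releases endostatin, was at 290.5 and 297 CPM in ΔHD1/fl, 302 and 629 CPM in ΔHD1/-, 321 and 248 CPM in ΔHD2/fl, and 967, 0.0450 and 0.0837 CPM in ΔHD2/-. The 7 other lines were thus all at 248 CPM or more for Col18a1 and at 116 CPM or more for Serpinh1, and ΔHD2/- line 1 was above both ΔHD2/fl lines for either gene while lines 2 and 3 were below them. The same pair of lines had no read of Col1a2, Col3a1 or Lox without cytokine, had P4ha2 at 0.0450 and 0 CPM, and had the highest Loxl4 of all lines. Since these lines are near copies of each other, this pattern counts as 1 observation.

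**Figure D2:**
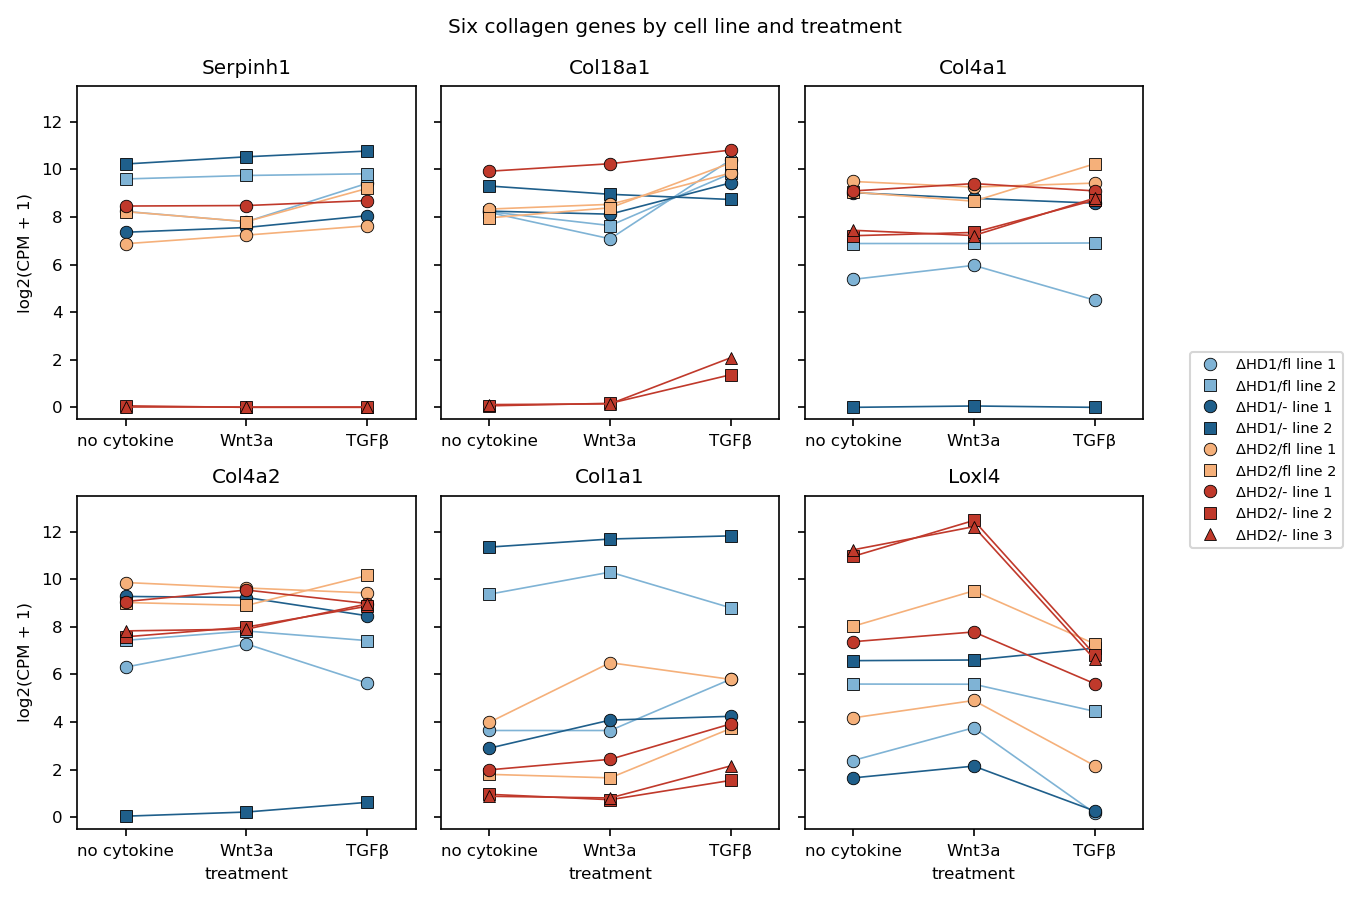
Level of 6 members in each line and treatment, on a log2(CPM + 1) axis, with 1 point per library and the libraries of a line joined across treatments. Serpinh1 stays at or near 0 in ΔHD2/- lines 2 and 3 under each treatment, Col4a1 and Col4a2 stay at 0 or near it in ΔHD1/- line 2, and Col18a1 is higher with TGFβ in 8 of the 9 lines.

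Among chains of the cell surface and the basement membrane zone, Col17a1 was at 1064 CPM in ΔHD2/fl line 2, at 56.2 CPM in ΔHD2/fl line 1 and 27.5 CPM in ΔHD2/- line 1, and at 12.6 CPM or less in the other 6. The anchoring-fibril chain Col7a1 was at 2.20 and 9.81 CPM in ΔHD1/fl, 22.0 and 4.51 CPM in ΔHD1/-, 93.5 and 357 CPM in ΔHD2/fl, and 63.7, 9.68 and 7.24 CPM in ΔHD2/-. Its levels in ΔHD2/fl were above those of all other lines. Col6a1, the chain of collagen VI from which beaded filaments are assembled with Col6a2 and Col6a3, was at 61.4 and 1364 CPM in ΔHD1/fl, 301 and 530.1 CPM in ΔHD1/-, 27.1 and 607 CPM in ΔHD2/fl, and 3.23, 1289 and 1275 CPM in ΔHD2/-. The level of Col6a1 per kilobase was 2.63 to 281 times that of Col6a2 (median 8.78, 26 libraries). The 6 libraries of ΔHD2/- lines 2 and 3 held the highest ratios, from 93.2 to 281, and the highest of the other lines was 73.9 (ΔHD1/- line 2 with TGFβ). RNA of these partner chains was thus not at a fixed ratio. The size of the ratio depends on the exon lengths used, 4380 bases for Col6a1 and 8326 for Col6a2, but its spread does not. Col12a1, a chain bound to the surface of fibrils, was at 3.81 CPM at the lowest (ΔHD2/- line 3), 264 CPM at the median and 966 CPM at the highest (ΔHD1/fl line 2).

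Among the enzymes, Lox varied most between lines and Plod3 least. Lox was at 4.89 and 999 CPM in ΔHD1/fl, 457 and 0.416 CPM in ΔHD1/-, 107 and 2.18 CPM in ΔHD2/fl, and 11.6, 0 and 0 CPM in ΔHD2/-. Its paralog Loxl4 (chr19:42593982-42612813) was at 4.21 and 47.3 CPM in ΔHD1/fl, 2.14 and 94.4 CPM in ΔHD1/-, 17.0 and 258 CPM in ΔHD2/fl, and 165, 1983 and 2401 CPM in ΔHD2/-. Lox was thus high in some ΔHD1 lines and at 0 in the lines where Loxl4 was highest. Loxl2 was at 0.623 CPM or less in all 9. Plod3, which hydroxylates collagen lysines and also adds sugars to them, had the smallest spread of the members with a mean of at least 10 CPM (SD 0.235 on the log2(CPM + 1) scale), between 89.5 and 152 CPM. The next smallest were Col4a5 (SD 0.710, 97.9 to 449 CPM), Plod1 (SD 0.770, 31.3 to 125 CPM) and Col16a1 (SD 0.818, 40.2 to 172 CPM). P4ha1, a catalytic subunit of prolyl 4-hydroxylase, was between 27.6 and 56.7 CPM in 7 lines, and it was highest in ΔHD1/- line 2 (318 CPM) and ΔHD1/fl line 2 (149 CPM). Plod2, the lysyl hydroxylase of the telopeptides that sets the type of cross-link, ranged from 2.29 to 98.9 CPM (median 39.1 CPM).

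Removal of the floxed allele was tested by comparing recombined with fl lines without cytokine, in a fit of the 9 untreated libraries with limma on log2(CPM + 1). A gene was called where the Benjamini-Hochberg adjusted p over all 13270 tested genes was at most 0.05 and the log2 fold change at least 1 in size. For ΔHD1/- against ΔHD1/fl no member was called, and neither was any other gene (0% of genes called). At an unadjusted p under 0.05 there were 3 members of 45, against 3.99% of all genes, and edgeR on the recovered reads also called 0 members. The smallest p was that of Col4a5, at 331 and 449 CPM in ΔHD1/- and at 97.9 and 124 CPM in ΔHD1/fl, groups that did not overlap (log2 fold change 1.80 ± 0.22, SE, limma adjusted p = 0.224). For ΔHD2/- against ΔHD2/fl no member was called either, in a comparison that called 0.0603% of genes. Here 8 members had an unadjusted p under 0.05, against 6.89% of all genes, edgeR called 0 members, and the fit was limited by the spread between lines, with a median SE of 1.49 over the members. Of these 8, Col17a1 differed most, being lower by a log2 fold change of -5.71 (95% confidence interval -9.39 to -2.04, limma adjusted p = 0.504), and Col7a1 was lower by -3.36 (-6.03 to -0.70, adjusted p = 0.671). Without ΔHD2/- line 1, 5 members were called in this comparison, which then rested on the near-identical lines 2 and 3. The share of all genes called in that refit is not given here, so the 5 do not show an excess of members. Intervals of this width leave differences of many-fold in either direction undetectable for most members.

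With TGFβ, 20 of the 45 tested members passed the threshold in the mean response, 14 higher and 6 lower. The mean response weighted the 4 genotypes equally in a limma fit of all 27 libraries with cell line as a block, so that each line was compared with itself. The 14 higher members were 31.1% of those tested, where 3.02% of all genes were called higher, and the 6 lower were 13.3%, where 5.90% of all genes were called lower. The filter of 1 CPM in 2 libraries was passed by 4 members (Loxl2, Col9a2, Col10a1 and Col25a1) only with their TGFβ libraries counted, so a call as higher among these follows in part from the filter. Of these Loxl2 was called, and 13 higher members remain without it. The median log2 fold change was 0.26 over the members and -0.16 over all genes, a median that moved to -0.02 with median-of-ratios scaling. The share of higher calls among all called genes was 33.9% in this fit, 46.8% with that scaling and 43.7% with edgeR, so directions here are relative to the library totals. As a check of the treatment, Smad7, the inhibitor that TGFβ signalling is known to induce as feedback, rose by 1.71 on the log2 scale and was higher in 9 of 9 lines.

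Col7a1 (chr9:108953586-108984875) had the largest change of the set. With TGFβ it was at 33.6 and 313 CPM in ΔHD1/fl, 444 and 196 CPM in ΔHD1/-, 482 and 974 CPM in ΔHD2/fl, and 971, 603 and 700.45 CPM in ΔHD2/-, against 2.20 to 357 CPM in the same lines untreated. All 9 lines rose, by 2.73-fold in the line with the highest untreated level to 62.3-fold and 96.7-fold in ΔHD2/- lines 2 and 3 and at most 43.6-fold in the others (median of all 9 20.2-fold), and the log2 fold change was 4.04 ± 0.34 (SE, limma adjusted p = 3.56e-06). Without cytokine all 3 ΔHD2/- lines were below both ΔHD2/fl lines, and with TGFβ the groups overlapped.

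**Figure D3:**
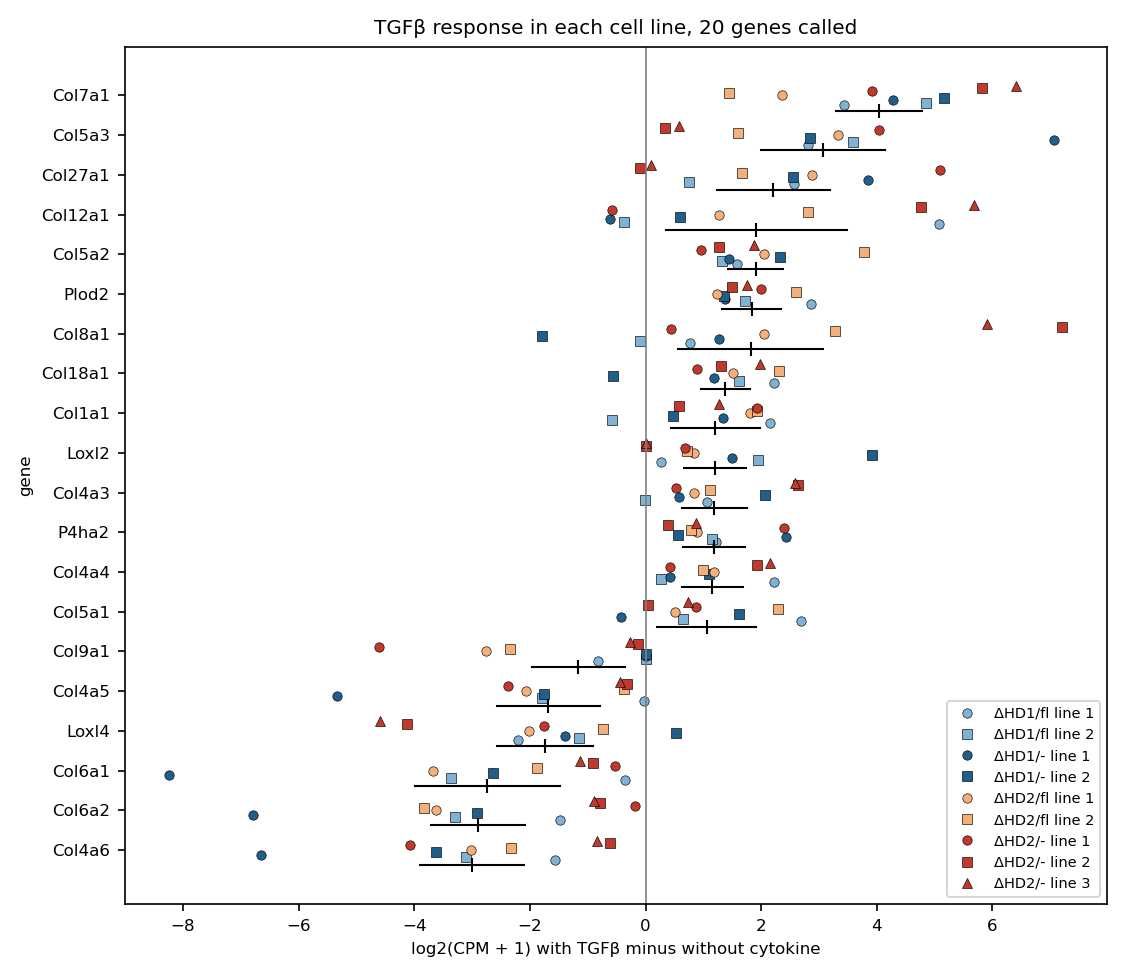
Log2 change of CPM + 1 with TGFβ against no cytokine in each line, with 1 point per line, for the 20 members called in the mean response. The black bar under each row of points is the 95% confidence interval of the mean response from limma and its tick the mean. All 9 points of Col7a1, Col5a2, Col5a3 and Plod2 lie above 0, and all 9 points of Col6a1, Col6a2, Col4a5 and Col4a6 lie below it.

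Of the 10 fibrillar chains tested, 5 rose and none fell. Col5a3, the third collagen V chain, was between 0 and 45.9 CPM untreated (median 0.941 CPM) and between 0.259 and 335 CPM with TGFβ (median 16.2 CPM), higher in 9 of 9 lines (3.07 ± 0.49, adjusted p = 0.000354). Col5a2 was at 2.27, 2080, 163, 1006, 655, 768, 26.7, 1.41 and 2.67 CPM with TGFβ, in the order of lines used above, and was higher in 9 of 9 lines (1.91 ± 0.22, adjusted p = 3.30e-05). Both belong to the collagen V trimers, and the third chain Col5a1 was higher in 8 of 9 lines, but its call was close to the threshold (1.05 ± 0.40, adjusted p = 0.0445) and was lost under 11 of 18 alternative settings. Col27a1, a fibrillar chain of cartilage, rose from a median of 1.19 CPM to a median of 12.025 CPM (2.21 ± 0.45, adjusted p = 0.00174, higher in 8 of 9). Col1a1 rose by 1.21 ± 0.36 (adjusted p = 0.0146, higher in 8 of 9), to 54.7 and 442 CPM in ΔHD1/fl, 17.9 and 3611 CPM in ΔHD1/-, 54.2 and 12.3 CPM in ΔHD2/fl, and 14.2, 1.92 and 3.46 CPM in ΔHD2/-. ΔHD1/fl line 2 was the line that did not rise, and the call was lost without ΔHD1/fl line 1 (0.87), ΔHD1/- line 1 (adjusted p = 0.0640) or ΔHD2/- lines 2 and 3 together (adjusted p = 0.0529). The difference between lines in Col1a1 thus exceeded the response, since no line outside the high pair came above 54.7 CPM with TGFβ. With TGFβ Col1a2 was at 22.8 and 96.6 CPM in ΔHD1/fl, 1.07 and 718 CPM in ΔHD1/-, 19.2 and 39.4 CPM in ΔHD2/fl, and 0.757, 1.26 and 1.38 CPM in ΔHD2/-. It was lower than untreated in the high pair of lines and in ΔHD1/- line 1 and higher in the other 6, and was not called (0.85 ± 0.51, adjusted p = 0.186), although it was called without ΔHD1/fl line 2 (1.43, adjusted p = 0.0163) and by edgeR (2.35, adjusted p = 0.0457). Col3a1 had no common direction (-0.02 ± 0.56, adjusted p = 0.977, higher in 5 of 9), and its sign changed with the pseudocount, with the scaling and with edgeR.

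Of the 6 collagen IV chains, the pair on the X chromosome fell, the minor pair rose and the common pair was not called. Col4a6 (chrX:141165403-141474076) went from 107 and 49.7 to 35.4 and 4.90 CPM in ΔHD1/fl, from 216 and 549 to 1.15 and 43.6 CPM in ΔHD1/-, from 96.5 and 153 to 11.0 and 29.8 CPM in ΔHD2/fl, and from 192, 1.04 and 1.38 to 10.5, 0.333 and 0.333 CPM in ΔHD2/-. It was lower in 9 of 9 lines, by 3.01-fold to 187-fold (log2 fold change -3.00 ± 0.41, adjusted p = 0.000121). Col4a5 (chrX:141475385-141689234), on the other side of the interval shown above, was lower in 9 of 9 lines, by 1.02-fold to 45.8-fold (-1.68 ± 0.41, adjusted p = 0.00527). Both had their largest fall in ΔHD1/- line 1, where Col4a5 went from 331 to 7.23 CPM. Col4a3 (1.19, adjusted p = 0.00268) and Col4a4 (1.15, adjusted p = 0.00214) are named after their values were seen, beyond the 10 largest rises. Their medians rose from 0.218 to 4.28 CPM and from 0.405 to 3.66 CPM. Both calls were lost without ΔHD2/- lines 2 and 3, and that of Col4a4 also without ΔHD1/fl line 1 (0.91). Col4a1 (0.22 ± 0.21, adjusted p = 0.425, higher in 5 of 9) and Col4a2 (0.17 ± 0.22, adjusted p = 0.562, higher in 4 of 9) were at 525 and 517 CPM untreated and 1201 and 1141 CPM with TGFβ in ΔHD2/fl line 2, but at 518 and 618 CPM untreated and 381 and 351 CPM with TGFβ in ΔHD1/- line 1. The sign of Col4a2 changed when ΔHD1/- line 2 (-0.01) or ΔHD2/fl line 2 (-0.03) was left out. In ΔHD1/- line 2 Col4a1 stayed at 0 CPM and Col4a2 reached 0.540 CPM with TGFβ.

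Of the 3 collagen VI chains tested, 2 fell. Col6a1 (chr10:76708792-76726168) with TGFβ was at 47.7 and 132 CPM in ΔHD1/fl, 0 and 83.9 CPM in ΔHD1/-, 1.21 and 165 CPM in ΔHD2/fl, and 1.93, 683 and 578 CPM in ΔHD2/-, lower in 9 of 9 lines (-2.73 ± 0.58, adjusted p = 0.00212). Its neighbour Col6a2 (chr10:76595762-76623630) went from 14.4 and 487 to 4.54 and 48.6 CPM in ΔHD1/fl, from 114 and 22.7 to 0.0397 and 2.16 CPM in ΔHD1/-, from 19.6 and 166 to 0.680 and 10.8 CPM in ΔHD2/fl, and from 0.830, 24.7 and 21.2 to 0.605, 13.9 and 11.0 CPM in ΔHD2/-. It too was lower in 9 of 9 lines (-2.90 ± 0.37, adjusted p = 7.33e-05). In ΔHD1/- line 1 both genes ended at or near 0, from 301 and 114 CPM. Col6a3 had a value of -0.80 ± 0.32 and missed both thresholds (adjusted p = 0.0550, higher in 2 of 9).

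Among the other chains, Col18a1 rose by 1.38 ± 0.19 (adjusted p = 0.000125), to 1356 and 908 CPM in ΔHD1/fl, 690.3 and 424 CPM in ΔHD1/-, 919 and 1234 CPM in ΔHD2/fl, and 1794, 1.59 and 3.25 CPM in ΔHD2/-. It rose in 8 of 9 lines, the exception being ΔHD1/- line 2, where it went from 629 to 424 CPM. ΔHD2/- lines 2 and 3, silent without cytokine, thus came above the floor but stayed below 4 CPM. Col12a1 (1.92 ± 0.72, adjusted p = 0.0434, higher in 6 of 9) went from 9.24 to 345 CPM in ΔHD1/fl line 1, from 6.75 to 209.5 CPM in ΔHD2/- line 2 and from 3.81 to 247 CPM in ΔHD2/- line 3. The 3 lines that started lowest rose most by fold, and of the 5 lines that started at 264 CPM or more 3 fell and 2 rose (ΔHD1/- line 2 from 301 to 457 CPM and ΔHD2/fl line 2 from 311 to 2184 CPM). The call was lost under 12 of 18 alternative settings, including 7 of the 9 in which a line was left out. Col8a1, a short chain that forms hexagonal networks, was higher in 7 of 9 lines (1.82 ± 0.58, adjusted p = 0.0212), most of all in ΔHD2/- lines 2 and 3, which went from 0.856 and 3.60 to 274 and 275 CPM. Its call was lost under 10 settings, among them those without ΔHD2/- line 2 or line 3 or both. Col9a1 was called lower (-1.16 ± 0.37, adjusted p = 0.0207, higher in 0 of 9) from a median of 0.251 CPM, but the call was lost with edgeR (adjusted p = 1) and under 9 other settings, and the median was close to the floor. Col16a1 was lower in 9 of 9 lines by less than the threshold for size (-0.90 ± 0.23, adjusted p = 0.00619). Neither of the 2 transmembrane chains tested was called, and Col17a1 had a value of -0.71 ± 0.25 (adjusted p = 0.0337), which passed the threshold for size when ΔHD2/fl line 2 was left out (-1.02, adjusted p = 0.00430).

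Of the 12 enzyme and chaperone genes, 3 were called higher, of which Loxl2 passed the filter only through its TGFβ libraries, and 1 fell. Plod2 was at 22.9 and 117 CPM in ΔHD1/fl, 103 and 256 CPM in ΔHD1/-, 133 and 206 CPM in ΔHD2/fl, and 86.2, 169 and 145 CPM in ΔHD2/- with TGFβ, and rose in 9 of 9 lines by 2.39-fold to 10.0-fold (log2 fold change 1.83 ± 0.23, adjusted p = 7.01e-05). Its paralogs changed by less. Plod3 was higher in 9 of 9 lines by 1.04-fold to 1.57-fold (0.40 ± 0.08, adjusted p = 0.00117) and Plod1 in 8 of 9 (0.56 ± 0.18, adjusted p = 0.0199), both below the threshold for size. P4ha2, another prolyl 4-hydroxylase subunit (1.18 ± 0.25, adjusted p = 0.00212, higher in 9 of 9, named after its values were seen), was called, but not without ΔHD1/- line 1 (0.95), while P4ha1 had a value of 0.49 ± 0.17 (adjusted p = 0.0319). Loxl2 was at 0.623 CPM or less without TGFβ, and with it reached 23.4 CPM in ΔHD1/- line 2 and at most 2.84 CPM in the other lines. Its value of 1.21 ± 0.25 is given as a description, since its TGFβ libraries alone brought it into the test, and it fell below the threshold for size without ΔHD1/fl line 2 (1.00) or ΔHD1/- line 2 (0.90). Loxl4 went the other way. It was at 0.126 and 20.8 CPM in ΔHD1/fl, 0.199 and 136 CPM in ΔHD1/-, 3.48 and 155 CPM in ΔHD2/fl, and 47.8, 113 and 98.0 CPM in ΔHD2/- with TGFβ, lower in 8 of 9 lines (-1.74 ± 0.38, adjusted p = 0.00271), and ΔHD1/- line 2 was the line in which it was higher. In ΔHD2/- lines 2 and 3 the fall was from 1983 to 113 CPM and from 2401 to 98.0 CPM. Lox had no common direction (0.10 ± 0.61, adjusted p = 0.903, higher in 5 of 9). It went from 457 to 24.4 CPM in ΔHD1/- line 1 and from 999 to 761 CPM in ΔHD1/fl line 2, but from 2.18 to 58.6 CPM in ΔHD2/fl line 2 and from 11.6 to 24.9 CPM in ΔHD2/- line 1. Its sign changed without ΔHD1/fl line 1 (-0.05), ΔHD1/- line 2 (-0.45) or ΔHD2/fl line 2 (-0.51). Serpinh1 was at 681 and 898 CPM in ΔHD1/fl, 264 and 1742 CPM in ΔHD1/-, 197 and 587 CPM in ΔHD2/fl, and 411, 0 and 0 CPM in ΔHD2/-. It was higher in all 7 lines where it was read above the floor, but below the threshold for size (0.56 ± 0.14, limma adjusted p = 0.0050).

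Without the block for cell line, 7 of the 20 members passed, where 5.42% of all genes did. Col7a1, Col5a3, Col27a1, Col4a6, Col6a2 and Col4a5 were called under all 18 alternatives tried, and Col5a2, Plod2, Col18a1, Col6a1 and Loxl4 under all but the fit without the block. Leaving out the 2 lines with high fibroblast receptor levels, an alternative added after the data were seen, left 18 called members, and leaving out ΔHD2/- lines 2 and 3 left 14. Shares of all genes called in these 2 refits are not given here, so the counts show only how the calls moved. Of the 6 epithelial markers, Krt5 (-2.12), Krt14 (-2.09) and Cdh1 (-1.53) were called lower with TGFβ, and Krt18 (0.90, limma adjusted p = 0.0152, higher in 7 of 9), Krt8 (0.64, adjusted p = 0.0797, higher in 7 of 9) and Epcam (-0.72, adjusted p = 0.103, higher in 3 of 9) were not called, while the median of the summed fibroblast markers was 22.7 CPM untreated and 20.9 CPM with TGFβ. In the 3 lines with the highest sums it was lower with TGFβ, at 658 against 1207 CPM in ΔHD1/fl line 2, 197 against 1117 CPM in ΔHD1/- line 2 and 51.0 against 219 CPM in ΔHD1/- line 1. The median leukocyte sum was 6.08 CPM untreated and 11.8 CPM with TGFβ. Csf1r was called higher (1.49, limma adjusted p = 0.00315, higher in 8 of 9, the exception being ΔHD1/- line 2), Cd68 had a value of -0.91 (adjusted p = 0.000664, higher in 2 of 9), below the threshold for size, and Ptprc and Cd3e were at most 0.252 and 0.0862 CPM in any library. The median endothelial sum was 0.950 and 1.08 CPM, with Cdh5 at most 0.407 CPM without TGFβ and 0.340 to 6.32 CPM with it. The part of these changes in the collagen response was not tested.

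**Figure D4:**
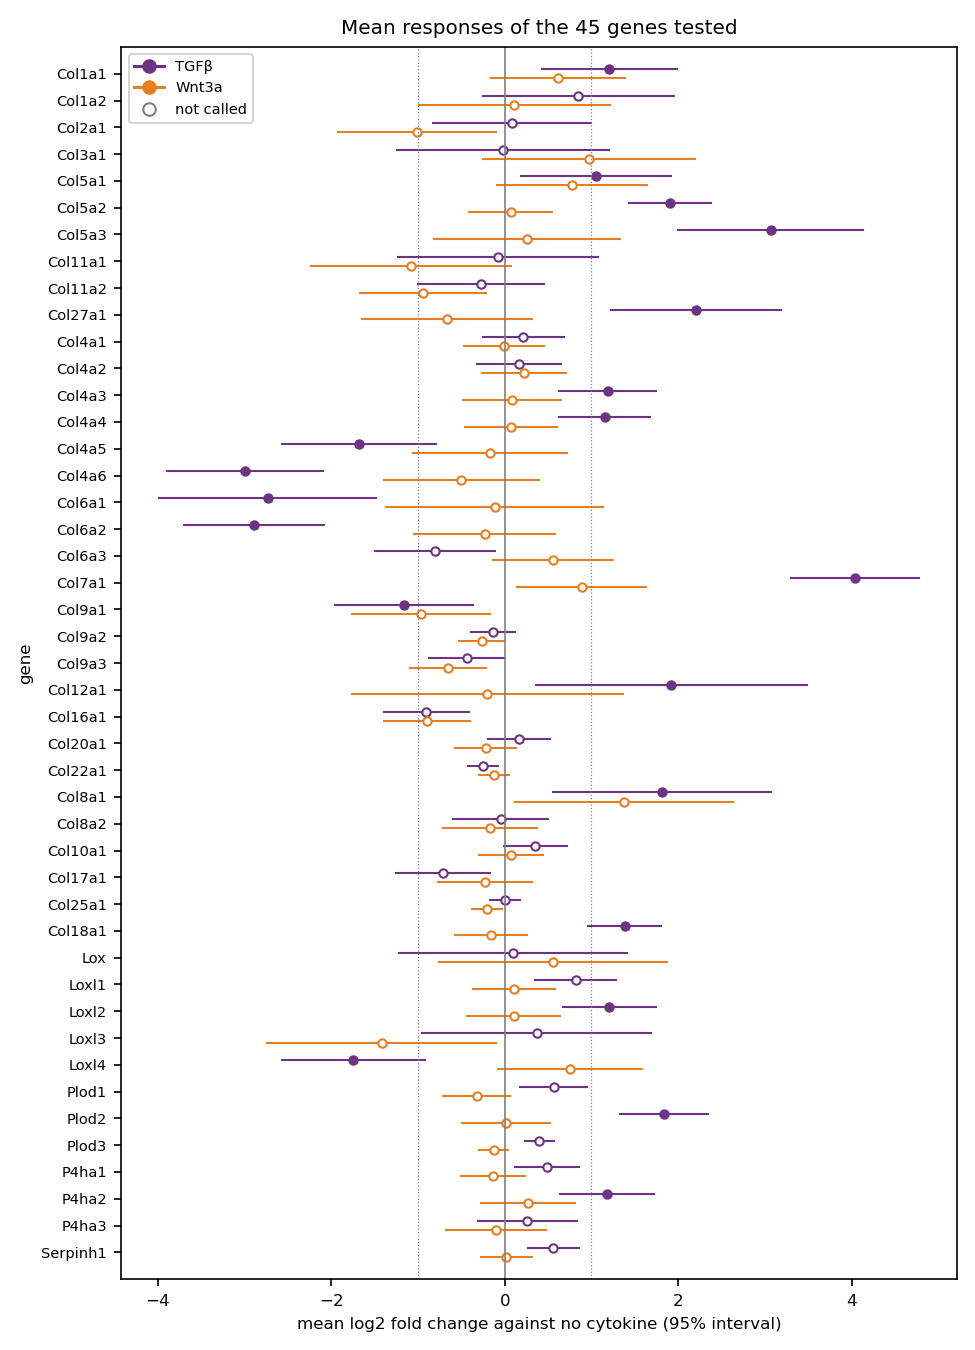
Mean log2 fold change of each tested member with TGFβ and with Wnt3a, on the log2(CPM + 1) scale with bars for the 95% confidence interval from limma, filled points for called values, and members grouped by role. Both sets of values share the untreated libraries, and 20 members were called with TGFβ and 0 with Wnt3a.

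Responses to TGFβ were also fitted in each genotype, from 2 or 3 lines each and with a spread shared by all lines. In ΔHD1/fl, 3 members were called (5.42% of all genes), namely Col7a1 (4.15 ± 0.71, SE, adjusted p = 0.00490), Plod2 (2.29) and Col18a1 (1.91). In ΔHD1/-, 9 members were called (9.33% of all genes), of which Col5a3 (4.95), Col7a1 (4.72), Col27a1 (3.20), Loxl2 (2.70, brought into the test by its TGFβ libraries alone) and Col5a2 (1.89) were higher and Col6a1 (-5.44), Col4a6 (-5.14), Col6a2 (-4.85) and Col4a5 (-3.54) lower. In ΔHD2/fl, 6 members were called (5.24% of all genes), with Col5a2 (2.91), Plod2 (1.92), Col18a1 (1.91), Plod1 (1.28) and P4ha1 (1.27) higher and Col6a2 (-3.72) lower. In ΔHD2/-, 8 members were called (6.03% of all genes), with Col7a1 (5.38), Col8a1 (4.52), Col4a3 (1.91), Plod2 (1.75), Col4a4 (1.505), Col18a1 (1.39) and Col5a2 (1.37) higher and Loxl4 (-3.50) lower. These counts depended on single lines. In ΔHD2/- the count was 1 without either line 2 or line 3, and 10 without line 1, where it rested on the near-identical lines 2 and 3. Shares of all genes in these refits are not given here. In the other genotypes a line left out leaves 1 line, and the Col7a1 response in ΔHD1/fl was then 3.44 or 4.86. With only the compared libraries in the fit no member was called in either ΔHD1 genotype. The share of higher calls among all called genes moved with median-of-ratios scaling from 43.3% to 56.6% in ΔHD1/fl, from 26.7% to 43.5% in ΔHD1/-, from 34.4% to 55.3% in ΔHD2/fl and from 37.2% to 47.8% in ΔHD2/-.

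A call in 1 genotype and not in another does not show a difference between them, so the responses themselves were compared. The TGFβ response of ΔHD1/- against ΔHD1/fl differed for 0 members (0.0226% of all genes), with 6 members at an unadjusted p under 0.05, against 8.22% of all genes. Among these, the value for Col18a1 was -1.60 (95% interval -2.83 to -0.37, limma adjusted p = 0.544), from responses of 1.91 in ΔHD1/fl and 0.31 in ΔHD1/-. For ΔHD2/- against ΔHD2/fl it differed for 0 members (0.098% of all genes), with 4 at an unadjusted p under 0.05, against 8.79% of all genes. The smallest p was that of Col7a1, whose response was larger in ΔHD2/- by 3.48 (1.49 to 5.48, limma adjusted p = 0.338), where untreated levels were 93.5 and 357 CPM in ΔHD2/fl and 63.7, 9.68 and 7.24 CPM in ΔHD2/-. Without ΔHD2/- line 1, 2 members passed in this comparison, a count given without the share of all genes in that refit, so it shows no excess of members. In edgeR neither comparison called a member.

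With Wnt3a no member was called, where 32 genes, or 0.241% of those tested, were. The Wnt3a libraries were listed at day 3 and the untreated ones at day 4, so the comparison also differed by day. At an unadjusted p under 0.05 there were 10 members, against 17.3% of all genes, edgeR called 0 members, and the median log2 fold change was -0.12 over the members and -0.06 over all genes. Of the 32 called genes 46.9% were higher, and 62.5% with median-of-ratios scaling. The treatment itself was seen in Axin2, the feedback target of β-catenin, which rose by 4.22 on the log2 scale in 9 of 9 lines. The members of smallest p were Col16a1 (-0.89 ± 0.23, limma adjusted p = 0.0991, lower in 8 of 9), Col9a3 (-0.65 ± 0.20, adjusted p = 0.163) and Col11a2 (-0.94 ± 0.34, adjusted p = 0.203). Col16a1, a FACIT-like chain (one of the collagens that sit on the surface of fibrils rather than form them), was between 40.2 and 172 CPM untreated and at 15.6 and 136 CPM in ΔHD1/fl, 132 and 130 CPM in ΔHD1/-, 60.5 and 48.6 CPM in ΔHD2/fl, and 78.1, 32.6 and 42.6 CPM in ΔHD2/- with Wnt3a. The largest difference was in ΔHD1/fl line 1, from 158 to 15.6 CPM. It passed the threshold without ΔHD1/fl line 2 (-1.26), as did Col11a2 without ΔHD2/- line 1 (-1.18) and Col3a1 without ΔHD2/fl line 2 (1.67), and 1 member passed without ΔHD2/fl line 1.

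In a single line, ΔHD2/fl line 1, the fibrillar chains Col3a1 (103 against 1.51 CPM), Col1a1 (88.9 against 14.8 CPM) and Col5a1 (76.3 against 8.28 CPM) and the enzyme gene Lox (447 against 107 CPM) were higher with Wnt3a than without. The partner chains Col1a2 (1.29-fold) and Col5a2 (1.35-fold) were little different. That pattern was noticed in the values and has 1 library on each side, so it has no test. Over the 9 lines Col1a1 (0.61 ± 0.36, limma adjusted p = 0.389), Col3a1 (0.97 ± 0.56, adjusted p = 0.389), Col5a1 (0.77 ± 0.40, adjusted p = 0.333) and Lox (0.56 ± 0.61, adjusted p = 0.678) were not called. The 2 fibroblast receptor genes moved in the same libraries, with Pdgfra at 13.1 CPM untreated and 35.4 CPM with Wnt3a and Pdgfrb at 4.31 and 46.5 CPM, and their part in it was not tested.

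Some members moved in most lines with Wnt3a without passing the test, and they are named after their values were seen. Loxl3, a lysyl oxidase with a scavenger receptor part, was lower in 7 of 9 lines (-1.42 ± 0.61, limma adjusted p = 0.269), going from 104 and 128 CPM to 5.93 and 6.12 CPM in ΔHD2/- lines 2 and 3 and from 64.2 to 11.3 CPM in ΔHD2/fl line 2. Col8a1 was higher in 9 of 9 lines (1.37 ± 0.58, limma adjusted p = 0.263), and Loxl4 was higher in 8 of 9 (0.76 ± 0.38, adjusted p = 0.325), at 5652 and 4719 CPM in ΔHD2/- lines 2 and 3 and 728 CPM in ΔHD2/fl line 2. Its Wnt3a values in those lines were thus above the untreated ones, and the TGFβ values were below them. Col7a1 had a value of 0.89 ± 0.34 (adjusted p = 0.231, higher in 6 of 9). Serpinh1 (0.02 ± 0.14) and Col18a1 (-0.16 ± 0.19) stayed near 0, with 95% intervals of -0.28 to 0.31 and -0.57 to 0.26, and both remained at or near 0 CPM in ΔHD2/- lines 2 and 3. For ΔHD1/- against ΔHD1/fl the Wnt3a response differed for 0 members, as for all genes (0%), with 1 member (Col16a1) at an unadjusted p under 0.05, against 1.17% of all genes. For ΔHD2/- against ΔHD2/fl it differed for 0 members, where 0.121% of all genes were called, with 2 members (Col25a1 and Col9a2) at an unadjusted p under 0.05, against 2.82% of all genes. In edgeR both counts of members were 0. With a line left out, 1 member passed in the first comparison without ΔHD1/fl line 2, and 1 in the second without ΔHD2/fl line 1, ΔHD2/fl line 2 or ΔHD2/- line 1.

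Other genes of the collagen pathway were taken from lists by role. With TGFβ, 3.02% of all tested genes were called higher and 5.90% lower. Whether genes of these lists passed the filter only with their TGFβ libraries is not given here. Of 11 folding and modifying genes tested with TGFβ, none was called higher and P3h2, a prolyl 3-hydroxylase of collagen IV, was called lower (-2.78). Fkbp14, which helps collagen to fold, had a value of 0.96 (limma adjusted p = 0.00258, higher in 8 of 9), below the threshold for size. P3h2 was also called lower with Wnt3a (-1.17, limma adjusted p = 0.0266). None of 7 genes for the export of procollagen was called. Of 7 proteinases and enhancers that trim procollagen, Bmp1 (1.89), Tll1 (2.38) and Pcolce2 (1.52) rose and Pcolce (-2.06) fell. Tll1 was higher in only 7 of 9 lines, Bmp1 and Pcolce2 in 9 of 9 and Pcolce in 0 of 9. Of 6 fibril-associated genes only Fn1, the gene for fibronectin, was called (1.90). Of 7 receptor genes, the collagen receptor subunits Itga2 (3.15) and Itgb1 (1.22) rose and Itga10 (-1.21) fell, and of 4 genes for uptake and cleavage only Mmp13, a collagenase, was called (2.62). With Wnt3a no gene of these lists other than P3h2 was called.

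Reads of some members cannot be assigned beyond doubt. The libraries were made with a stranded kit, but use of strand in counting is not stated, so reads of Col4a1 and Col4a2 where they overlap, and those of Lox, Loxl2, Loxl3, Plod2, Plod3, Col4a3, Col5a1, Col9a3, Col10a1 and Col22a1 where exons of another annotated gene overlap theirs on the opposite strand, cannot be told apart. Col3a1, Col7a1, Col20a1, Loxl2 and Plod3 overlap another annotated gene on their own strand, where strand would not separate the reads.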

How the data were processed

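RNA of 27 libraries was analysed from a table of CPM. Per the labels, stranded mRNA libraries were sequenced as single reads on a NovaSeq. The authors kept reads with a unique STAR hit in mm10, counted them in RefSeq exons with QuasR, and deposited CPM, which sum to 1000000 in each library and carry no other scaling. The values were whole multiples of what 1 read is worth, within a tolerance of 0.01, so reads could be recovered. Symbols matched 24374 of 24454 identifiers. Groups came from the titles of the samples, and the labels state that replicates were 2 lines from different mice per genotype, which leaves the origin of the third ΔHD2/- line open to doubt.

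In R 4.3.3, limma 3.58.1 was run on log2(CPM + 1), a scale that understates the change of low genes, for the 13270 genes at 1 CPM or more in 2 or more libraries (lmFit, then robust eBayes with a trend). Treatment responses were fitted on all 27 libraries with cell line as a block, and untreated genotypes on the 9 untreated libraries, in 12 comparisons. Libraries of 1 line deviated together from their group means (correlation 0.509 to 0.940), as the number stands for a line and the labels say that each line was plated for all treatments at once. P-values were adjusted by Benjamini-Hochberg over all tested genes, and a call required an adjusted p of at most 0.05 and a log2 fold change of at least 1 in size, as in the methods of the study. Levels of different genes were compared per kilobase of exon in a GRCm38 annotation. All annotated exons of a gene were merged, which can exceed the length of the RNA made, so ratios and ranks between genes depend on it. Scripts were tested on simulated data.

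Results were recomputed with edgeR 4.0.16 on recovered reads, median-of-ratios scaling, a pseudocount of 0.1, no filter, calls by adjusted p alone or by unadjusted p with a 1.5-fold change (a threshold the study names as well), no block, other sets of libraries, ΔHD2/- lines 2 and 3 averaged, and each line left out. The set, the lists by role and the markers were chosen with earlier results of these data known. Values were given for anchors picked by role, for up to 10 members called in each direction with TGFβ, for those of smallest p with Wnt3a, for up to 4 in each direction elsewhere, and for the 6 most and 4 least variable untreated members. A table of RefSeq promoter windows gave sequence, and Lox sequence was not used.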

Additional observations from a re-analysis of the deposited data

How the results depend on the processing

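The number of called members in the TGFβ mean response was 20. It was 7 without the replicate block, 14 to 20 with a line left out, and within 1.5 times 20 under all other alternatives. With Wnt3a it was 0, and it was 8 by unadjusted p with a 1.5-fold change, 2 with the compared groups only, 0 to 1 with a line left out, 1 without the 2 lines of high fibroblast receptor levels and 1 without the 2 lines lacking Serpinh1, both added after the data were seen. In the genotypes, unadjusted p gave 14, 14, 20 and 17 members for ΔHD1/fl, ΔHD1/-, ΔHD2/fl and ΔHD2/-, no replicate block gave 0, 1, 0 and 1, the compared groups only gave 0, 0, 12 and 2, and a line left out gave 1 to 9, 3 to 7, 0 to 1 and 1 to 10. A pseudocount of 0.1 gave 5 and edgeR 6 in ΔHD1/fl, edgeR gave 14 in ΔHD2/-, and averaging ΔHD2/- lines 2 and 3 gave 3 in ΔHD2/fl and 1 in ΔHD2/-. For the untreated comparisons unadjusted p gave 3 (ΔHD1) and 8 (ΔHD2), all 27 libraries gave 2 for ΔHD2, and a line left out gave 0 to 5 for ΔHD2. For differences in response unadjusted p gave 6 and 4 with TGFβ and 1 and 2 with Wnt3a, and a line left out gave 0 to 2 for TGFβ in ΔHD2 and 0 to 1 for Wnt3a in both families. For the Wnt3a mean response, unadjusted p under 0.05 alone held for 17.3% of all genes. Shares of all genes under the other settings are not given here, so these counts show how the calls moved and not an excess of members. The causes of these moves were not tested.

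Line numbers shared by fl and recombined lines were treated as names only. Deviations of same-numbered lines correlated at 0.472 in the ΔHD1 family and 0.164 and 0.190 in the ΔHD2 family, with 2 pairs each, and a replicate block by number gave 0 called members in both untreated comparisons.

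Signs in the mean responses turned as follows for members that were not called. With TGFβ, Col3a1 was 0.40 with a pseudocount of 0.1, 0.063 with median-of-ratios scaling, 1.86 with edgeR, 0.0020 with lines averaged, -0.24 to 0.20 with a line left out, 0.075 without the 2 lines of high fibroblast receptor levels and 0.075 without the 2 lines lacking Serpinh1. Without the latter pair Col4a1 was -0.020 and Col4a2 -0.048, and without the former Col4a2 was -0.089 and Lox -0.30. With a line left out Col4a2 was -0.030 to 0.36 and Lox -0.51 to 0.71. With Wnt3a, Col4a1 was 0.049 (pseudocount), 0.060 (scaling), 0.062 (edgeR), 0.0078 (averaged), 0.030 and 0.052 (without either pair) and -0.080 to 0.067 (a line left out), Col6a1 was 0.011 (edgeR) and -0.39 to 0.15 (a line left out), Col17a1 was 0.041 without the high fibroblast receptor pair, Plod2 was -0.033 (pseudocount), -0.00094 (averaged), -0.24 and -0.047 (without either pair) and -0.18 to 0.22 (a line left out), and Serpinh1 was -0.023 (pseudocount), -0.069 (without the high fibroblast receptor pair) and -0.081 to 0.11 (a line left out). The floor set by depth, 0.0890 to 0.137 CPM, lay under the 1 CPM filter, and each genotype held only 2 or 3 lines.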
